A study of Mus musculus with 8 samples.

Results

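The comparison described here is the strain dependence of the response of the mouse colon to loss of Il10, taken as 1 contrast. For each probe set it is the Il10-null minus wild-type difference in C3H/HeJBir less the same difference in C57BL/6J, on the log2 scale. A positive value means that the Il10 difference was the higher in C3H/HeJBir. The contrast was formed for all 12422 probe sets of the array in all 8 pools, and the 7538 with a mean intensity of at least 36.0 were tested. RNA of whole colon was hybridised to Affymetrix MG_U74Av2 arrays, 1 array per pool. The 4 groups were C57BL/6J wild type, C57BL/6J carrying the targeted allele Il10tm1Cgn, C3H/HeJBir wild type and C3H/HeJBir carrying the same allele, with 2 pools each, numbered sample 1 and sample 2. The lines with the allele are called Il10-null here. Each pool combined 7 µg of RNA from each of 5 animals, or of 4 animals in the C3H/HeJBir wild-type pools and in sample 2 of C3H/HeJBir Il10-null. An age, 4 weeks, is labelled for 1 pool (C57BL/6J wild type, sample 2), and the labels state no other age and no sex. An array of pooled RNA gives 1 value per pool, so differences between animals are not measured.

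Interleukin 10 is a cytokine of T cells and myeloid cells that signals through its receptor and Stat3 to restrain macrophage activation and T helper 1 responses. Mice without it can develop colitis driven by gut microbes, and the severity of that colitis depends on the inbred strain, C3H/HeJBir being the more susceptible of these strains and C57BL/6J the more resistant. Interferon gamma, the main product of T helper 1 cells, turns on MHC class II genes, guanylate-binding proteins and immunity-related GTPases, while type I interferons act through Irf9 and its partners on a second, overlapping set of antiviral genes.

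The sample 1 arrays were hybridised on day 1 (Il10-null, both strains) and day 2 (wild type, both strains), and the sample 2 arrays together on day 3, so that a day enters the contrast with equal weight from both strains. Median intensity ran from 50.1 to 62.2 per array. Sample 1 of C3H/HeJBir Il10-null stood apart, with a mean rank correlation to the other arrays of 0.915 against 0.931 to 0.945 for the rest. Xist, transcribed from the inactive X chromosome of females, was at 243 to 452 in all 4 pools of sample 1 but at 2.84 to 12.9 in all 4 of sample 2; the sexes in the pools are not given, and the part of this in any contrast was not tested. The colon was represented by 19 tested absorptive colonocyte genes with a summed intensity of 56366 to 64748 per pool, 16 goblet cell genes (48917 to 59007) and 13 smooth muscle genes (12618 to 22254).

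No probe set passed the test of the contrast. Of 7538 tested, limma called 0 (0%) at an adjusted p of 0.05, and the lowest adjusted p was 0.496, for Gas5. At an unadjusted p under 0.05 stood 54 higher (0.716%) and 60 lower (0.796%), 114 in all. With the sample number as a block, which leaves the contrast as it is and changes its error, 211 stood below 0.05 unadjusted and the lowest adjusted p was 0.0620, so no call was made either. The median contrast was -0.0065, with 10% of probe sets below -0.48 and 10% above 0.46, and the median SE was 0.41. Since none passed, values are given with their errors and with the pools that show a direction, and no gene is said to depend on the strain.

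Computed apart in sample 1 and in sample 2, which share no pool, the contrast was not alike. Over 7538 probe sets, which are not independent replicates, Pearson's r between both versions was -0.14 and Spearman's rho -0.11, and the sign was the same for 46.0%. An absolute log2 of 1 or more was seen for 938 probe sets in sample 1 and 533 in sample 2, and for 167 in both. Of those 167, 44 had the same sign, 16 higher (0.212% of all tested) and 28 lower (0.371%), and 123 had opposite signs. The opposite ones were more often higher in sample 1 and lower in sample 2 (82, 1.09%) than the reverse (41, 0.544%). The contrast is made of 4 single Il10 differences, 1 per strain and sample number, that share no pool either. The highest correlation among them, 0.21, joined C57BL/6J sample 2 with C3H/HeJBir sample 1, against 0.037 for both sample numbers of C57BL/6J and -0.041 for both of C3H/HeJBir.

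**Figure D1:**
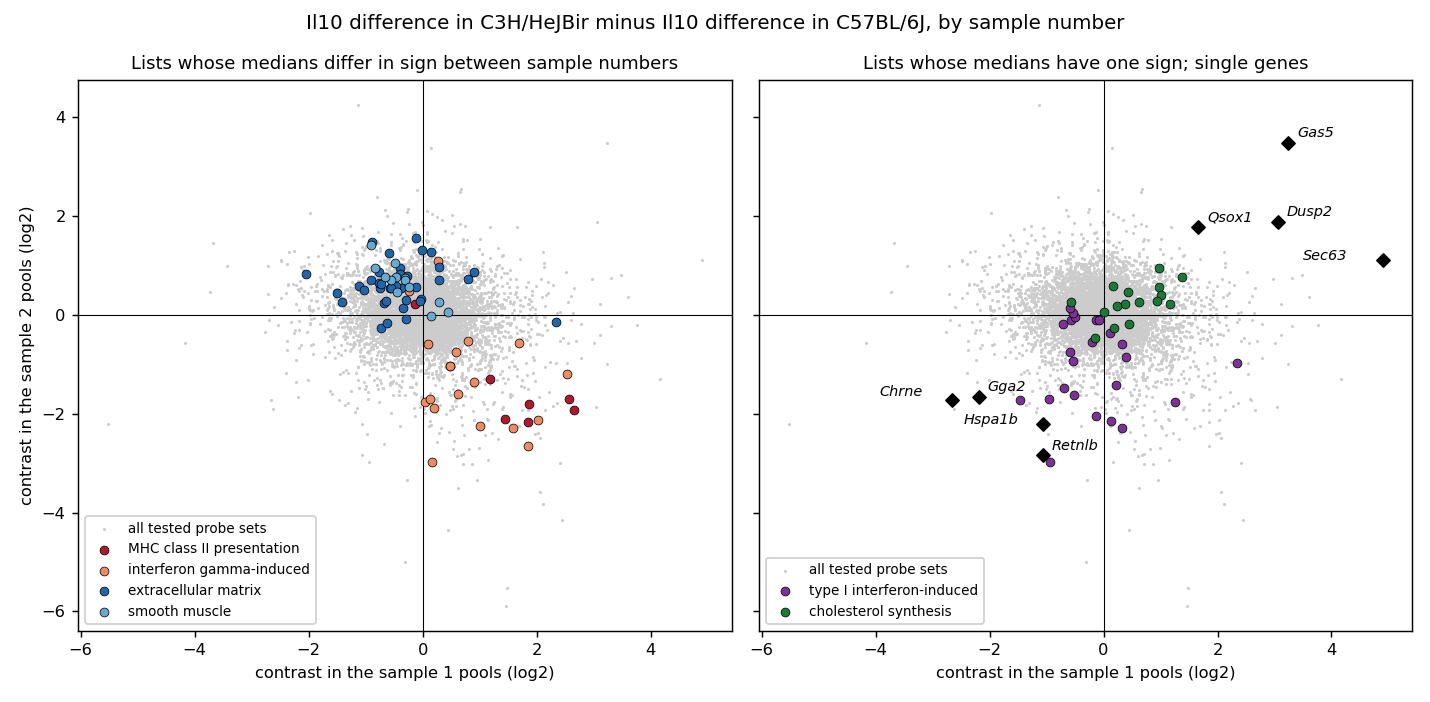
Contrast of each tested probe set in the sample 1 pools (x axis, log2) against the sample 2 pools (y axis, log2), grey for all 7538, with gene lists in colour. MHC class II and interferon gamma-induced genes lie mostly to the lower right and matrix and smooth muscle genes mostly to the upper left. Diamonds mark single genes, with Gas5 at 3.24 and 3.48 and Sec63 at 4.90 and 1.11. These were picked for 1 sign in both sample numbers, so that choice set their quadrants.

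Both interferon programmes are read in part from the same DNA letters, which is why their promoters are shown before the values. Promoter sequences, from 250 bases before to 50 bases after the start of the transcript, were taken from RefSeq, build GRCm38.p6, for 17 of the 24 type I interferon-induced and 13 of the 18 interferon gamma-induced genes tested. They were searched on both strands for the interferon-stimulated response element, GAAANNGAAA, or TTTCNNTTTC when read on the opposite strand, overlapping copies included. It was found in 7 of the 17, in 8 of the 13, in 1 of 5 MHC class II promoters, in 2 of 12 MHC class I and antigen processing promoters and in 1131 of all 32851 promoters (3.44%), with 1 promoter per gene in the lists but every entry in the last count. Those of 5 named genes are printed 5′ to 3′ in the direction of the gene, with each copy in capitals: Isg15 at chr4:156200769-156201068 on the minus strand, Ifit3 at chr19:34583279-34583578 on the plus strand, Gbp2 at chr3:142620413-142620712 on the plus strand, Gbp3 at chr3:142559794-142560093 on the plus strand and Irgm1 at chr11:48871371-48871670 on the minus strand.
Isg15: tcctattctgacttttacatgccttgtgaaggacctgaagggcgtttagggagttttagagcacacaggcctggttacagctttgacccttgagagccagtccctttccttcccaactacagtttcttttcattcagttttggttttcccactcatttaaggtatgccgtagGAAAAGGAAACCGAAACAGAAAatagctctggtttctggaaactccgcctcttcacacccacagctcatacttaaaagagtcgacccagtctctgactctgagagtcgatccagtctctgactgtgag
Ifit3: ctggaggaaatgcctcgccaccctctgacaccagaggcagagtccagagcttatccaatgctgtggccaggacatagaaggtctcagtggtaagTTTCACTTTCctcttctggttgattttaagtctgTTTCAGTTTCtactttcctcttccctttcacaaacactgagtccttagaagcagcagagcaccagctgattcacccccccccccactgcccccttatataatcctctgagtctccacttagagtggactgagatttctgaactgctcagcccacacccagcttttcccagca
Gbp2: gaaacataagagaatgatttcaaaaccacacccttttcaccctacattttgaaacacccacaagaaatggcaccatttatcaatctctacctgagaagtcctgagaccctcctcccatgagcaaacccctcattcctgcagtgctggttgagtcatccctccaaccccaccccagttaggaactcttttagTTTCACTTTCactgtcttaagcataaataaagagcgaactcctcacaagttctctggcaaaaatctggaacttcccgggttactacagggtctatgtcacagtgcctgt
Gbp3: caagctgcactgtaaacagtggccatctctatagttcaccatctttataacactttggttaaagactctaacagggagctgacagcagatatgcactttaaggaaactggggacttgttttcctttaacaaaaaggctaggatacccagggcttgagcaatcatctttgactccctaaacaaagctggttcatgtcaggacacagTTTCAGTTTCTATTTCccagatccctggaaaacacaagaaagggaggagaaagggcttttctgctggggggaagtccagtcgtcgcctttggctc
Irgm1: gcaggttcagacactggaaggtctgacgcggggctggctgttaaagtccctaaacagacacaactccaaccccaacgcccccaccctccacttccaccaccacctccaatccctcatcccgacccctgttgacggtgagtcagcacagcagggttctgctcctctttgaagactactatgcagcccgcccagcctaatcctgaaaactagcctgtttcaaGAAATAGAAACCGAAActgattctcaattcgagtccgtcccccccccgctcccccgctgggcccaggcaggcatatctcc
Isg15 held 3 copies that overlap in 1 run, Gbp3 and Irgm1 held 2 overlapping copies each, Ifit3 held 2 separate copies and Gbp2 held 1. These 5 were picked among the genes that hold the element. Lgals3bp, Ifi27l2a and Cxcl9, described below, were not among the genes in which it was found. Whether their promoters were among those searched was not recorded. The match is a description of the letters in this window. Although both lists share it, their contrasts had different patterns over the sample numbers, as follows.

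MHC class II genes, whose products present peptides to helper T cells, had a median contrast of opposite sign in the sample numbers, and none of them reached an unadjusted p under 0.05. Of 12 such genes on the array 8 were tested, and the median contrast was -0.02 over all 8 pools, 1.65 in sample 1 and -1.76 in sample 2. The median Il10 difference was 0.27 in C57BL/6J sample 1 and 2.13 in sample 2, and 2.16 in C3H/HeJBir sample 1 and 0.36 in sample 2. Thus the high Il10-null pool was sample 2 in C57BL/6J and sample 1 in C3H/HeJBir. The contrast was positive in sample 1 and negative in sample 2 for 7 of the 8 genes, against 24.7% of all probe sets, and by a log2 of 1 or more both times for 6, against 82 of 7538 (1.09%).

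H2-Aa, the alpha chain of the I-A molecule, had intensities, always given as sample 1 and then sample 2, of 479 and 376 in C57BL/6J wild type, 517 and 1975 in C57BL/6J Il10-null, 594 and 761 in C3H/HeJBir wild type, and 3834 and 1203 in C3H/HeJBir Il10-null. Its contrast was 2.56 in sample 1 and -1.71 in sample 2, and 0.43 ± 0.95 (SE, 2 pools a group) over all pools. For H2-DMb1, a chain of the molecule that loads peptides, the intensity was 49.1 and 39.7 in C57BL/6J wild type, 72.3 and 278 in C57BL/6J Il10-null, 67.5 and 104 in C3H/HeJBir wild type, and 675 and 161 in C3H/HeJBir Il10-null. The C57BL/6J sample 2 and C3H/HeJBir sample 1 Il10-null pools were the highest of the 8 for both genes. H2-DMa, the other chain of the loading molecule, gave a contrast of 1.45 in sample 1 and -2.10 in sample 2. For Ciita, the coactivator that switches these genes on, it was 0.48 in sample 1 and -1.04 in sample 2, with intensities of 11.2 to 62.4. Ctss, a protease that trims the invariant chain, was the exception with -0.13 and 0.23.

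Interferon gamma-induced genes followed the same layout, with 18 of 20 on the array tested. Their median contrast was -0.27 over all 8 pools, 0.60 in sample 1 and -1.48 in sample 2, and 16 of the 18 were positive in sample 1 and negative in sample 2 (24.7% of all probe sets), 5 of them by 1 or more both times (1.09% of all). The Il10 difference had a median of 0.38 and 1.30 in C57BL/6J and of 1.498 and 0.04 in C3H/HeJBir, for sample 1 and sample 2. Gbp3, a guanylate-binding protein active against intracellular microbes, had intensities of 50.6 and 26.3 in C57BL/6J wild type, 67.3 and 177 in C57BL/6J Il10-null, 175 and 169 in C3H/HeJBir wild type, and 254 and 104 in C3H/HeJBir Il10-null. Its contrast of -1.41 ± 0.72 was made in sample 2, where it was -2.98, and was 0.17 in sample 1. Gbp2, of the same family, had 128 and 107 in C57BL/6J wild type, 291 and 486 in C57BL/6J Il10-null, 199 and 153 in C3H/HeJBir wild type, and 513 and 176 in C3H/HeJBir Il10-null. Cxcl9, the chemokine that draws T helper 1 cells through Cxcr3, had 4.29 and 12.4 in C57BL/6J wild type, 61.0 and 71.7 in C57BL/6J Il10-null, 26.3 and 24.1 in C3H/HeJBir wild type, and 182 and 26.9 in C3H/HeJBir Il10-null. Both Il10-null pools of C57BL/6J lay above both wild-type pools for Gbp2 and Cxcl9, while in C3H/HeJBir sample 1 alone stood high. Irgm1, a regulator of the immunity-related GTPases, gave a contrast of 0.05 in sample 1 and -1.76 in sample 2. The summed intensity of the 18 genes was 2169 and 2072 in C57BL/6J wild type, 3281 and 5301 in C57BL/6J Il10-null, 3220.2 and 3356 in C3H/HeJBir wild type, and 9938 and 3532 in C3H/HeJBir Il10-null.

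These medians depended on single pools. Without sample 1 of C3H/HeJBir Il10-null, the array that stood apart, the median contrast was -0.70 for MHC class II and -1.13 for interferon gamma-induced genes, and without sample 2 of that group it was 0.67 and 0.40. Without sample 1 of C57BL/6J Il10-null it was -0.53 and -0.76, and without sample 2 it was 0.60 and 0.10. The sign of both medians therefore changed with the Il10-null pool left out. Without a wild-type pool they were -0.18 to 0.09 for MHC class II and -0.41 to -0.21 for interferon gamma-induced genes.

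**Figure D2:**
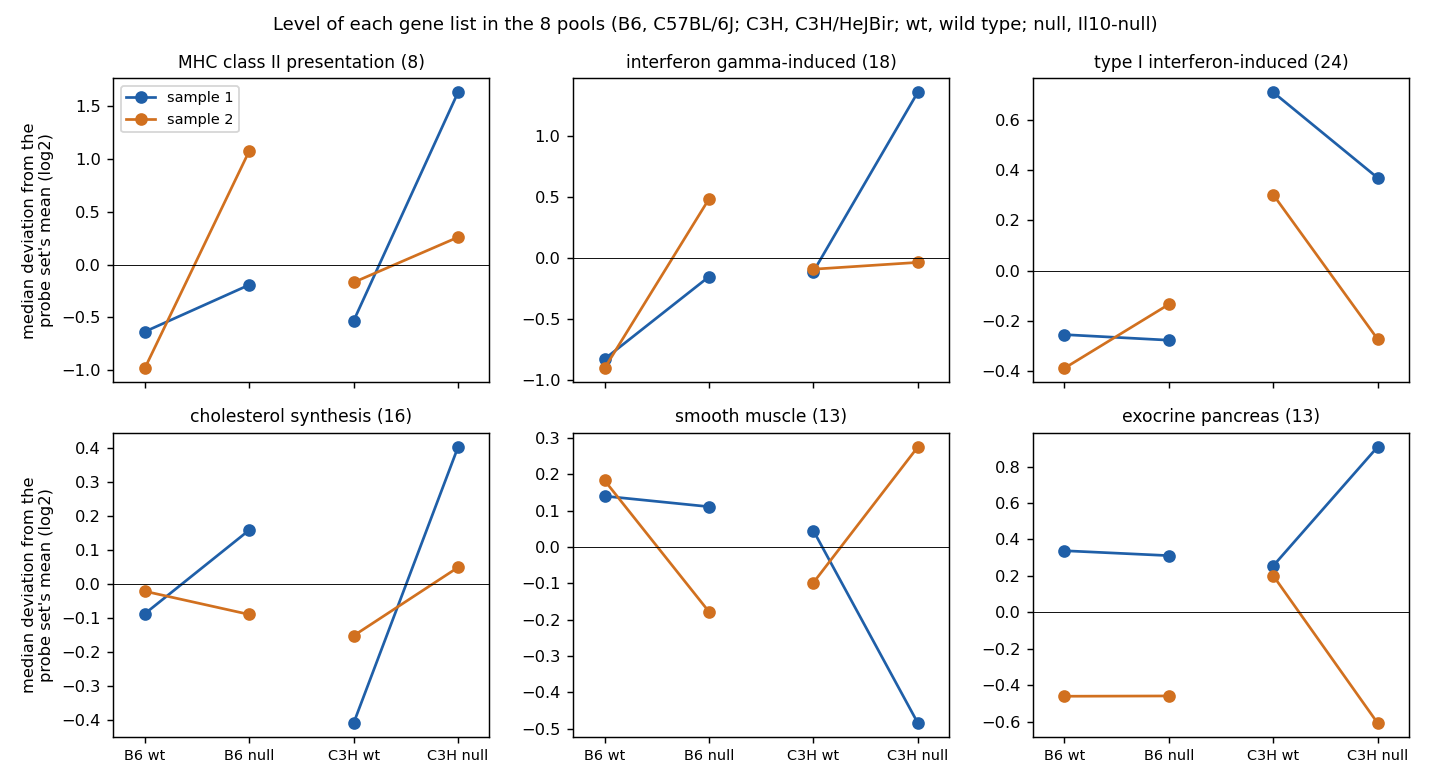
Level of 6 gene lists in the 8 pools, as the median over the tested genes of the log2 deviation from each probe set's mean over the arrays (y axis), with blue for sample 1 and orange for sample 2 and lines joining wild type and Il10-null of a strain. For MHC class II the Il10-null pools stand at -0.19 and 1.08 in C57BL/6J and at 1.63 and 0.26 in C3H/HeJBir, so the lines cross in both strains, while for type I interferon-induced genes the lines of C3H/HeJBir both slope down.

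MHC class I and antigen processing genes had a median of -0.03 over all 8 pools, 0.37 in sample 1 and -0.56 in sample 2, with 13 of 14 positive in sample 1 and negative in sample 2, against 24.7% of all probe sets. Psmb8, a subunit of the immunoproteasome, had intensities of 222 and 267 in C57BL/6J wild type, 415 and 835 in C57BL/6J Il10-null, 537 and 688 in C3H/HeJBir wild type, and 1476 and 621 in C3H/HeJBir Il10-null. Tap1, which carries peptides into the endoplasmic reticulum, gave 0.10 in sample 1 and -1.17 in sample 2, and H2-Q1, a nonclassical class I heavy chain, was the exception with -0.20 in sample 1 and -0.68 in sample 2. B2m, the light chain of all class I molecules, gave 0.05 in sample 1 and -0.73 in sample 2. Acute-phase and antimicrobial genes (22 of 26 tested) had a median of 0.26 over all 8 pools, 0.62 in sample 1 and -0.49 in sample 2. Of the 22, 12 were positive in sample 1 and negative in sample 2 (24.7% of all probe sets) and 2 the reverse (29.2%). Positive in both were 5 (23.1% of all) and negative in both 3 (22.9%).

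The antimicrobial genes held members far apart. Retnlb, a goblet cell protein induced by microbes and type 2 cytokines, had intensities of 745 and 514 in C57BL/6J wild type, 1572 and 4033 in C57BL/6J Il10-null, 10942 and 9363 in C3H/HeJBir wild type, and 10963 and 10101 in C3H/HeJBir Il10-null. It was higher in both Il10-null pools of C57BL/6J and alike in the 4 pools of C3H/HeJBir, which lay above every C57BL/6J pool. Whether the array has a limit at such intensities was not tested. The contrast of Retnlb was -1.95 ± 0.59, -1.06 in sample 1 and -2.84 in sample 2 (limma unadjusted p = 0.0105, adjusted p = 0.999). S100a8, a subunit of calprotectin from neutrophils, had 35.0 and 19.7 in C57BL/6J wild type, 34.6 and 23.6 in C57BL/6J Il10-null, 22.2 and 34.1 in C3H/HeJBir wild type, and 581 and 9.53 in C3H/HeJBir Il10-null. A single pool, C3H/HeJBir Il10-null sample 1, was high. Itln1, a lectin that binds microbial sugars, had 63.5 and 64.9 in C57BL/6J wild type, 49.9 and 44.5 in C57BL/6J Il10-null, 1570.3 and 1844 in C3H/HeJBir wild type, and 261 and 1037 in C3H/HeJBir Il10-null, with a contrast of -1.31 ± 0.75. Reg3g, a lectin against Gram-positive bacteria, had 646 and 1016 in C57BL/6J wild type, 2496 and 3915 in C57BL/6J Il10-null, 2646 and 2666 in C3H/HeJBir wild type, and 7003 and 3922 in C3H/HeJBir Il10-null. It was higher in the Il10-null pool in both strains and both sample numbers, with a contrast of -0.96 ± 0.52, -0.53 in sample 1 and -1.38 in sample 2.

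Cd14, Gbp2b and Pla2g2a were put forward by the published study on these samples, so their values here are not independent evidence. Cd14, the co-receptor for lipopolysaccharide, had intensities of 344 and 341 in C57BL/6J wild type, 485 and 556 in C57BL/6J Il10-null, 1696 and 1881 in C3H/HeJBir wild type, and 3829.5 and 2338 in C3H/HeJBir Il10-null. It gave a contrast of 0.16 ± 0.39, 0.69 in sample 1 and -0.38 in sample 2. Gbp2b had 19.6 and 3.62 in C57BL/6J wild type, 6.08 and 25.4 in C57BL/6J Il10-null, 229 and 251 in C3H/HeJBir wild type, and 766 and 272 in C3H/HeJBir Il10-null, with 2.53 in sample 1 and -1.20 in sample 2. For Pla2g2a, a secreted phospholipase of Paneth and goblet cells, the intensity was 44.3 and 6.38 in C57BL/6J wild type, 21.1 and 44.9 in C57BL/6J Il10-null, 2013 and 1172 in C3H/HeJBir wild type, and 5446 and 1283 in C3H/HeJBir Il10-null, with 2.21 in sample 1 and -1.55 in sample 2. All of them were far higher in C3H/HeJBir than in C57BL/6J in either genotype, and in each the sign of the contrast differed between the sample numbers. In C57BL/6J, Gbp2b at 3.62 and 6.08 and Pla2g2a at 6.38 lay below 11.07, the constant added before the log. The sample 2 Il10 differences in C57BL/6J, 1.31 for Gbp2b and 1.68 for Pla2g2a, start from such values. In C3H/HeJBir sample 2 they were 0.11 and 0.13. Without sample 1 of C3H/HeJBir Il10-null the contrasts of Cd14, Gbp2b and Pla2g2a were -0.20, -0.06 and -0.71.

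Neutrophil, B cell and exocrine pancreas markers also had a positive median contrast in sample 1 and a negative one in sample 2, and their part in the other contrasts was not tested. In such bulk RNA, fewer cells of a type and less RNA per cell cannot be told apart. Of 18 neutrophil genes 5 were tested, with a summed intensity of 3053 in C3H/HeJBir Il10-null sample 1 and 736 to 1440 in the other pools, and a median contrast of 0.29 over all 8 pools, 1.17 in sample 1 and -0.58 in sample 2. Of those 5, 3 were positive in sample 1 and negative in sample 2 (24.7% of all probe sets) and 2 the reverse (29.2%). B cell and plasma cell genes (12 of 20 tested) had -0.37 over all 8 pools, 0.49 in sample 1 and -0.79 in sample 2, and a summed intensity of 3775 and 2380.2 in C57BL/6J wild type, 3008 and 3623 in C57BL/6J Il10-null, 6932 and 6470.2 in C3H/HeJBir wild type, and 8639 and 3229 in C3H/HeJBir Il10-null. Cd79a, part of the B cell receptor, gave 0.54 in sample 1 and -2.72 in sample 2. Exocrine pancreas genes (13 of 16 tested) had -0.06 over all 8 pools, 0.77 in sample 1 and -0.62 in sample 2. Among them Prss2, a trypsinogen, had intensities of 226 and 4.69 in C57BL/6J wild type, 321 and 19.7 in C57BL/6J Il10-null, 136 and 215 in C3H/HeJBir wild type, and 1107 and 13.9 in C3H/HeJBir Il10-null. It was low in every sample 2 pool but that of C3H/HeJBir wild type, and higher in every sample 1 pool. The lowest value of a tested member in any pool was 3.21 for the pancreas list, 12.01 for the B cell list and 9.53 for the neutrophil list, so none was listed at 0.

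**Figure D3:**
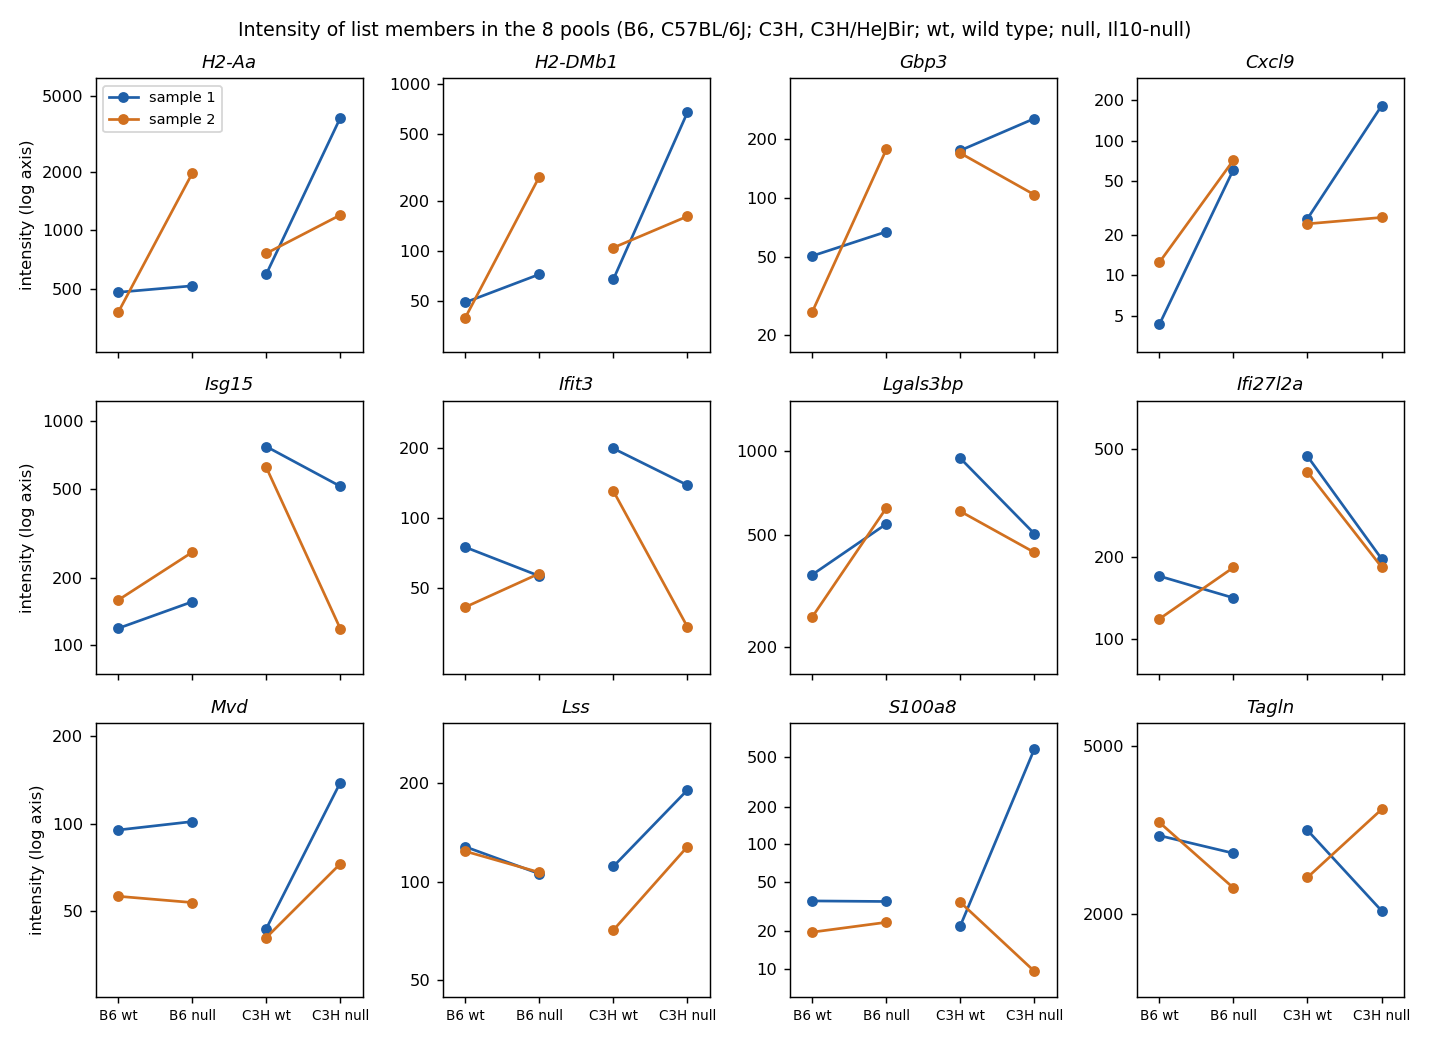
Intensity (y axis, log scale) of 12 list members in the 8 pools, with blue for sample 1, orange for sample 2 and lines joining wild type and Il10-null of a strain and sample number. The lines of H2-Aa, H2-DMb1 and S100a8 have different slopes in the sample numbers, whereas those of Lgals3bp rise in C57BL/6J and descend in C3H/HeJBir in both.

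Genes of the connective tissue and muscle layers had the reverse layout. Extracellular matrix genes (37 of 41 tested) had a median contrast of 0.05 over all 8 pools, -0.48 in sample 1 and 0.57 in sample 2, and 28 of the 37 were negative in sample 1 and positive in sample 2, against 29.2% of all probe sets. Smooth muscle genes (13 of 17 tested) had 0.16 over all 8 pools, -0.45 in sample 1 and 0.71 in sample 2, with 10 of 13 in that layout. Over all 8 pools the contrast was positive for all 13, against 49.2% of all probe sets. Tagln, an actin-binding protein of smooth muscle, had intensities of 3074 and 3304 in C57BL/6J wild type, 2792 and 2310.3 in C57BL/6J Il10-null, 3164 and 2447 in C3H/HeJBir wild type, and 2039.8 and 3545 in C3H/HeJBir Il10-null. Smtn, a smooth muscle cytoskeletal protein, gave a contrast of -0.91 in sample 1 and 1.41 in sample 2, and Des, its intermediate filament protein, 0.28 in sample 1 and 0.27 in sample 2. The Il10-null pools of C3H/HeJBir were the lowest (sample 1) and the highest (sample 2) for Tagln, so its contrast of 0.28 ± 0.43 joined opposite values. The summed intensity of the 13 genes was 20155 and 19671 in C57BL/6J wild type, 18565 and 15645 in C57BL/6J Il10-null, 18953 and 16571 in C3H/HeJBir wild type, and 12618 and 22254 in C3H/HeJBir Il10-null. Their median contrast was 0.54 without sample 1 of C3H/HeJBir Il10-null and -0.23 without sample 2.

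Among matrix genes, Fmod, a proteoglycan that binds collagen, had a contrast of 1.10 ± 0.76, 2.35 in sample 1 and -0.15 in sample 2. Mfap2, a microfibril protein, and Lama3, a laminin chain of epithelial basement membranes, were the named members with 1 sign in both, at 0.90 in sample 1 and 0.86 in sample 2 and at 0.79 in sample 1 and 0.71 in sample 2. Lama3 intensity was 250.1 and 262 in C57BL/6J wild type, 172 and 181 in C57BL/6J Il10-null, 122 and 133 in C3H/HeJBir wild type, and 150 and 155 in C3H/HeJBir Il10-null, lower in both Il10-null pools of C57BL/6J and slightly higher in those of C3H/HeJBir, with a contrast of 0.75 ± 0.30 (limma unadjusted p = 0.0347, adjusted p = 0.999). It was the 1 matrix gene of 37 with an unadjusted p under 0.05, against 1.51% of all probe sets in either direction. Tnxb, tenascin X, gave 0.72 ± 0.67, -0.11 in sample 1 and 1.55 in sample 2. Its dimmer probe set had the opposite sign over all pools, at -0.49 ± 0.77, from -2.0 and 1.02. Enteroendocrine genes (15 of 24 tested) had a median of -0.01 over all 8 pools, -0.55 in sample 1 and 0.43 in sample 2, with 10 of 15 negative in sample 1 and positive in sample 2, against 29.2% of all probe sets. Vip, a neuropeptide that relaxes gut muscle, was at 4.64 in C3H/HeJBir Il10-null sample 1 and at 48.6 to 85.7 elsewhere. Sst, somatostatin, was at 24.2 there and at 82.4 to 156 elsewhere. Adipocyte genes (13 of 21 tested) had 0.03 over all 8 pools, -0.33 in sample 1 and 0.42 in sample 2, and enteric neuron and glia genes (11 of 22 tested) -0.07 over all 8 pools, -0.24 in sample 1 and 0.37 in sample 2.

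Type I interferon-induced genes were the list with the lowest median contrast over all pools, and its sign was negative in both sample numbers. Of 29 on the array 24 were tested, with medians of -0.41 over all 8 pools, -0.35 in sample 1 and -0.89 in sample 2. The contrast was negative for 23 of the 24, against 50.8% of all probe sets, and negative in both sample numbers for 14, against 22.9%. At an unadjusted p under 0.05 stood 4 of the 24, all lower, against 0.796% of all probe sets; at a log2 of -1 or lower in both stood 1, Lgals3bp. The median Il10 difference was 0.05 and 0.18 in C57BL/6J and -0.40 and -0.50 in C3H/HeJBir for sample 1 and sample 2, so most of the contrast lay in C3H/HeJBir, where the wild-type pools were the higher.

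Isg15, a ubiquitin-like modifier, had intensities of 119 and 159 in C57BL/6J wild type, 156 and 260.1 in C57BL/6J Il10-null, 773 and 624 in C3H/HeJBir wild type, and 513 and 118 in C3H/HeJBir Il10-null. Both C3H/HeJBir wild-type pools were the highest of the 8, and the Il10-null sample 2 pool of that strain was the lowest. Its contrast was -1.96 ± 0.82, -0.95 in sample 1 and -2.97 in sample 2 (limma unadjusted p = 0.0429, adjusted p = 0.999). Lgals3bp, a secreted galectin-binding glycoprotein, had 363 and 257 in C57BL/6J wild type, 549 and 626 in C57BL/6J Il10-null, 939 and 608 in C3H/HeJBir wild type, and 506 and 435 in C3H/HeJBir Il10-null. It was higher in both Il10-null pools of C57BL/6J and lower in both of C3H/HeJBir than in the matching wild type, without overlap of genotypes in either strain, with a contrast of -1.59 ± 0.41, -1.46 in sample 1 and -1.72 in sample 2 (limma unadjusted p = 0.00452, adjusted p = 0.999).

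For Ifi27l2a, a small interferon-inducible membrane protein, the intensity was 170.5 and 119 in C57BL/6J wild type, 142 and 183 in C57BL/6J Il10-null, 471 and 412 in C3H/HeJBir wild type, and 198 and 184 in C3H/HeJBir Il10-null. The C3H/HeJBir wild-type pools stood above all others, which overlapped each other, and the contrast was -1.33 ± 0.37, -0.96 in sample 1 and -1.70 in sample 2 (limma unadjusted p = 0.00637, adjusted p = 0.999). Ifit3, an RNA-sensing antiviral protein, had 74.8 and 41.4 in C57BL/6J wild type, 56.3 and 57.6 in C57BL/6J Il10-null, 198 and 130.3 in C3H/HeJBir wild type, and 138 and 34.05 in C3H/HeJBir Il10-null. Its contrast of -1.09 ± 0.74 lay in sample 2 (-0.14 in sample 1 and -2.04 in sample 2). Ifi204, a DNA-sensing member of the Ifi200 family, was the 1 gene with a positive contrast, 0.69, from 2.34 in sample 1 and -0.97 in sample 2. The summed intensity of the 24 genes was 6829 and 5160.4 in C57BL/6J wild type, 6647 and 7008 in C57BL/6J Il10-null, 9171 and 7462 in C3H/HeJBir wild type, and 8645 and 4707 in C3H/HeJBir Il10-null. The median contrast of the list was negative without any 1 pool, from -0.85 without sample 1 of C3H/HeJBir Il10-null to -0.16 without sample 2, and it was -0.28 and -0.70 without sample 1 and sample 2 of C3H/HeJBir wild type and -0.62 without sample 1 of C57BL/6J wild type.

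Cholesterol synthesis genes were the list with the highest median contrast over all pools, at 0.41 over all 8 pools, 0.44 in sample 1 and 0.26 in sample 2. Of 17 on the array 16 were tested; 13 were positive, against 49.2% of all probe sets, and 12 were positive in both sample numbers, against 23.1%. Of the 16, 1 had an unadjusted p under 0.05, in the higher direction, against 0.716% of all probe sets. The Il10 difference had a median of 0.19 and -0.05 in C57BL/6J and of 0.74 and 0.20 in C3H/HeJBir.

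Lss, lanosterol synthase, which closes the sterol rings, had intensities of 128 and 124 in C57BL/6J wild type, 106 and 107 in C57BL/6J Il10-null, 111 and 71.1 in C3H/HeJBir wild type, and 191 and 128 in C3H/HeJBir Il10-null. It was lower in both Il10-null pools of C57BL/6J and higher in both of C3H/HeJBir, without overlap of genotypes in either strain, with a contrast of 0.96 ± 0.40, 0.97 in sample 1 and 0.96 in sample 2 (limma unadjusted p = 0.0423, adjusted p = 0.999). Mvd, mevalonate diphosphate decarboxylase, had 95.0 and 56.1 in C57BL/6J wild type, 102 and 53.4 in C57BL/6J Il10-null, 43.4 and 40.4 in C3H/HeJBir wild type, and 139 and 72.7 in C3H/HeJBir Il10-null. It gave a contrast of 1.07 ± 0.55, 1.37 in sample 1 and 0.76 in sample 2. Fdps, farnesyl diphosphate synthase, gave 0.98 in sample 1 and 0.56 in sample 2, and Idi1, isopentenyl diphosphate isomerase, 1.01 in sample 1 and 0.41 in sample 2. For Mvd, Fdps and Idi1 the C3H/HeJBir wild-type pools held the lowest or near-lowest values and C3H/HeJBir Il10-null sample 1 the highest. Mvk, mevalonate kinase, was the 1 gene negative in both, at -0.14 and -0.47. The list's median stayed positive without any 1 pool, and was 0.16 without sample 1 and 0.58 without sample 2 of C3H/HeJBir Il10-null, and 0.25 without sample 2 of C57BL/6J Il10-null.

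Genes of the mitochondrial respiratory chain had a small positive median of 0.13 over all 8 pools, 0.16 in sample 1 and 0.08 in sample 2, with 34 of 48 positive, against 49.2% of all probe sets, and 23 positive in both sample numbers, against 23.1%. Cox6b1, a subunit of cytochrome c oxidase, had intensities of 91.6 and 121 in C57BL/6J wild type, 22.4 and 58.0 in C57BL/6J Il10-null, 86.5 and 60.9 in C3H/HeJBir wild type, and 127 and 79.6 in C3H/HeJBir Il10-null. It was lower in both Il10-null pools of C57BL/6J, and its contrast was 1.69 ± 0.55, 2.12 in sample 1 and 1.27 in sample 2. Atp5g1, a subunit of the ATP synthase rotor, gave 0.78 in sample 1 and 1.52 in sample 2. Those were the 2 of 48 genes at an unadjusted p under 0.05, both higher, against 0.716% of all probe sets. Both were dim for this list, with mean intensities of 80.9 for Cox6b1 and 46.9 for Atp5g1. The summed intensity of the 48 genes was 68303 to 78459 per pool. Ndufc1 and Ndufb7, subunits of complex I, gave 0.29 in sample 1 and 0.65 in sample 2 and 0.29 in sample 1 and 0.65 in sample 2.

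Heat shock genes as a list had a median contrast near 0 (-0.05 over all 8 pools, -0.0005 in sample 1 and -0.27 in sample 2, 25 of 29 tested), but the inducible Hsp70 genes stood out. Hspa1b had intensities of 123 and 125 in C57BL/6J wild type, 219.7 and 210.1 in C57BL/6J Il10-null, 138 and 266 in C3H/HeJBir wild type, and 112 and 86.2 in C3H/HeJBir Il10-null. Its neighbour and near copy Hspa1a had 123 and 125 in C57BL/6J wild type, 240.3 and 182 in C57BL/6J Il10-null, 118 and 185 in C3H/HeJBir wild type, and 108 and 87.3 in C3H/HeJBir Il10-null. In C57BL/6J both Il10-null pools lay above both wild-type pools for both genes, and in C3H/HeJBir both lay below. Their contrasts were -1.63 ± 0.44 and -1.26 ± 0.40, -1.06 in sample 1 and -2.21 in sample 2 for Hspa1b and -1.02 in sample 1 and -1.496 in sample 2 for Hspa1a (limma unadjusted p = 0.00598 and 0.0126, adjusted p = 0.999 for both). These genes are near-identical in sequence, so their probe sets may read the same transcripts and are not 2 independent observations. Hsph1, a cochaperone of Hsp70, gave -0.15 in sample 1 and -1.89 in sample 2, and Hsp90aa1, the inducible Hsp90, -0.0005 in sample 1 and 1.81 in sample 2. The pair of Hsp70 genes were the 2 of 25 with an unadjusted p under 0.05, against 0.796% of all probe sets on the lower side. Negative in both sample numbers were 8 of the 25, against 22.9% of all.

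Immediate early genes (25 of 30 tested) had medians of -0.07 over all 8 pools, 0.08 in sample 1 and -0.30 in sample 2 and held members of opposite sign. Dusp2, a nuclear phosphatase of MAP kinases, had intensities of 93.5 and 120.1 in C57BL/6J wild type, 13.3 and 37.6 in C57BL/6J Il10-null, 78.3 and 48.1 in C3H/HeJBir wild type, and 162 and 70.1 in C3H/HeJBir Il10-null. It was lower in both Il10-null pools of C57BL/6J and higher in both of C3H/HeJBir than in the wild type of the same sample number, with a contrast of 2.47 ± 0.64, 3.06 in sample 1 and 1.89 in sample 2 (limma unadjusted p = 0.00452, adjusted p = 0.999). Btg2, an antiproliferative gene, had 741 and 906 in C57BL/6J wild type, 693 and 748 in C57BL/6J Il10-null, 774 and 922 in C3H/HeJBir wild type, and 325 and 359 in C3H/HeJBir Il10-null. Both C3H/HeJBir Il10-null pools lay below all others, with a contrast of -1.09 ± 0.33, -1.13 in sample 1 and -1.06 in sample 2. Ier2, induced by growth factors, gave -1.07 in sample 1 and -0.51 in sample 2, and Klf10, a Krüppel-like factor of TGF-beta signalling, 0.62 in sample 1 and 0.80 in sample 2.

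Absorptive colonocyte genes (19 of 20 tested) had 0.08 over all 8 pools, 0.01 in sample 1 and 0.05 in sample 2. Goblet cell genes (16 of 17 tested) had -0.23 over all 8 pools, -0.20 in sample 1 and -0.03 in sample 2, with 11 of the 16 negative, against 50.8% of all probe sets, and 7 negative in both, against 22.9%. At an unadjusted p under 0.05 stood 2, Retnlb and Tff2, both lower, against 0.796% of all. Tff2, a trefoil peptide that protects mucus, had intensities of 16.4 and 6.29 in C57BL/6J wild type, 45.0 and 3.93 in C57BL/6J Il10-null, 272 and 143 in C3H/HeJBir wild type, and 21.1 and 78.8 in C3H/HeJBir Il10-null, and a contrast of -4.17 in sample 1 and -0.57 in sample 2. It was low in every C57BL/6J pool and lower in the Il10-null than in the wild-type pools of C3H/HeJBir. Spdef, a transcription factor of goblet cell maturation, gave -0.86 in sample 1 and -0.99 in sample 2. Il10 receptor and Stat3 genes (15 of 17 tested) had 0.11 over all 8 pools, -0.12 in sample 1 and -0.12 in sample 2. Among them Socs3, the feedback inhibitor of Stat3, had intensities of 43.5 and 54.5 in C57BL/6J wild type, 40.7 and 163 in C57BL/6J Il10-null, 22.6 and 96.4 in C3H/HeJBir wild type, and 290 and 133 in C3H/HeJBir Il10-null, with a contrast of 3.24 in sample 1 and -0.99 in sample 2. Hmox1, heme oxygenase 1, a target of Il10 signalling in macrophages, gave -0.38 in sample 1 and -0.67 in sample 2. Lipopolysaccharide sensing genes (14 of 16 tested) had 0.08 over all 8 pools, 0.30 in sample 1 and -0.13 in sample 2, with Lbp, which carries lipopolysaccharide to Cd14, at 1.51 in sample 1 and -0.16 in sample 2, and Nfkb2 at 0.28 in sample 1 and 0.97 in sample 2.

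The other lists are given by their medians over all pools, with sample 1 and sample 2 in parentheses. Fatty acid oxidation and ketogenesis genes had 0.02 (-0.13 and 0.17) over 24 genes, and xenobiotic metabolism genes -0.02 (-0.14 and 0.14) over 40. In the latter Abcb1a, the efflux pump P-glycoprotein, had intensities of 1672 and 1901 in C57BL/6J wild type, 1481 and 1318 in C57BL/6J Il10-null, 1282 and 1440.3 in C3H/HeJBir wild type, and 411 and 1278 in C3H/HeJBir Il10-null, with C3H/HeJBir Il10-null sample 1 the lowest. Cell cycle genes had 0.05 (0.23 and -0.32) over 32, 20 of them positive in sample 1 and negative in sample 2, against 24.7% of all probe sets. Chemokines and cytokines had -0.02 (0.36 and -0.47) over 16 of 40 on the array, led by Cxcl1, a neutrophil chemokine, at 2.20 in sample 1 and 0.44 in sample 2. Macrophage and dendritic cell genes had 0.20 (0.43 and -0.11) over 19, T cell and NK cell genes 0.20 (0.58 and -0.07) over 8 of 27, and mast cell genes 0.04 (0.35 and -0.34) over 7. In the macrophage list Aif1, a calcium-binding protein, gave 3.60 in sample 1 and 0.36 in sample 2, and in the mast cell list Mcpt1, a mucosal mast cell protease, 3.31 in sample 1 and 0.74 in sample 2. Over all 8 pools the contrast was positive for 4 and negative for 3 of the 7 mast cell genes. Srgn, of the same list, went the other way, with -1.04 in sample 1 and -1.36 in sample 2. Metalloproteinases and inhibitors had -0.04 (0.23 and 0.05) over 13, in which Plat, tissue plasminogen activator, gave 1.81 in sample 1 and 0.56 in sample 2. Adhesion and endothelial genes had -0.12 (-0.11 and -0.06) over 9 of 22, small intestinal and Paneth cell genes 0.01 (0.15 and 0.13) over 11, and erythroid genes -0.11 (-0.52 and 0.65) over 5. Of all 34 lists, none held a member with an adjusted p under 0.05.

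**Figure D4:**
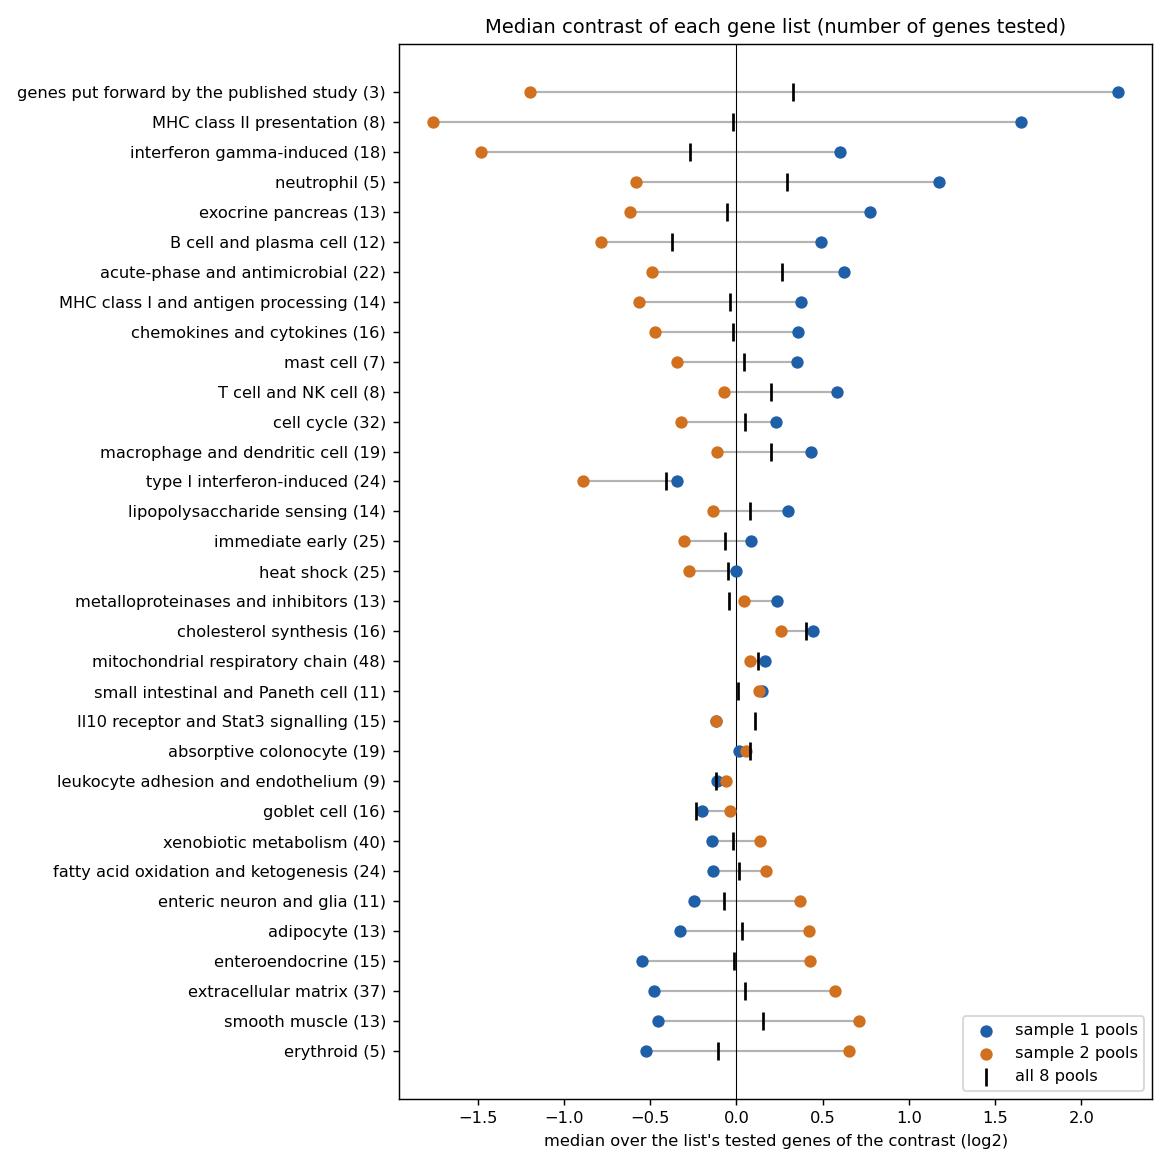
Median contrast (x axis, log2) of 33 gene lists (y axis, with the number of genes tested) in the sample 1 pools (blue), in the sample 2 pools (orange) and over all 8 pools (black bar), ordered by the gap between the sample numbers. MHC class II runs from -1.76 to 1.65 around a bar near 0, whereas type I interferon-induced genes lie wholly below 0 and cholesterol synthesis wholly above.

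Single genes were ranked by unadjusted p among those with 1 sign in both sample numbers, and none of them passed the adjustment. Gas5, whose introns encode small nucleolar RNAs, led the higher ones, with intensities of 1065 and 1362 in C57BL/6J wild type, 998 and 1351 in C57BL/6J Il10-null, 86.4 and 119.6 in C3H/HeJBir wild type, and 855 and 1439.7 in C3H/HeJBir Il10-null. Both C3H/HeJBir wild-type pools lay far below all other pools, which overlapped. Its contrast was 3.36 ± 0.46, 3.24 in sample 1 and 3.48 in sample 2 (limma unadjusted p = 7.33e-05, adjusted p = 0.496), made up of Il10 differences of -0.05 for C57BL/6J and 3.31 for C3H/HeJBir. A dimmer probe set of Gas5 gave 1.05 ± 0.49. Qsox1, a sulfhydryl oxidase that forms disulfide bonds, had 202 and 166 in C57BL/6J wild type, 160.2 and 183 in C57BL/6J Il10-null, 41.1 and 49.6 in C3H/HeJBir wild type, and 121 and 216 in C3H/HeJBir Il10-null. The C3H/HeJBir wild-type pools were again the lowest, and the contrast was 1.71 ± 0.42, 1.66 in sample 1 and 1.77 in sample 2 (limma unadjusted p = 0.00343, adjusted p = 0.999). Its other probe set gave -0.01.

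Crem, a transcription factor that answers to cyclic AMP, had intensities of 51.6 and 41.7 in C57BL/6J wild type, 25.96 and 25.1 in C57BL/6J Il10-null, 29.9 and 22.9 in C3H/HeJBir wild type, and 53.0 and 43.0 in C3H/HeJBir Il10-null. It was lower in both Il10-null pools of C57BL/6J and higher in both of C3H/HeJBir, without overlap of genotypes in either strain, with a contrast of 1.31 ± 0.33, 1.40 in sample 1 and 1.21 in sample 2. Fez1, an adaptor of kinesin transport, had 93.8 and 76.5 in C57BL/6J wild type, 56.1 and 41.4 in C57BL/6J Il10-null, 39.7 and 29.8 in C3H/HeJBir wild type, and 53.2 and 50.7 in C3H/HeJBir Il10-null, in the same layout, with 1.16 ± 0.35, and its other probe set gave 0.79. Sec63, part of the protein channel of the endoplasmic reticulum, had 135 and 84.6 in C57BL/6J wild type, 14.5 and 66.6 in C57BL/6J Il10-null, 14.9 and 57.2 in C3H/HeJBir wild type, and 125 and 108 in C3H/HeJBir Il10-null. Its contrast of 3.004 ± 0.83 came from sample 1 more than from sample 2 (4.90 in sample 1 and 1.11 in sample 2). The remaining higher genes were 6330403K07Rik at 1.55 ± 0.47, the nucleoside transporter Slc29a1 at 2.14 ± 0.65, Tm9sf3 at 1.26 ± 0.41, the ciliary transport gene Ift81 at 0.93 ± 0.31 and the alkaline phosphatase gene Alppl2 at 1.27 ± 0.43. Slc29a1 had a second, brighter probe set with a contrast of 0.08.

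Among the lower genes, Gga2, a clathrin adaptor of the Golgi, led with intensities of 18.8 and 14.6 in C57BL/6J wild type, 69.0 and 72.8 in C57BL/6J Il10-null, 46.7 and 31.8 in C3H/HeJBir wild type, and 22.8 and 33.3 in C3H/HeJBir Il10-null. It was higher in both Il10-null pools of C57BL/6J than in any other pool, with a contrast of -1.93 ± 0.36, -2.19 in sample 1 and -1.66 in sample 2 (limma unadjusted p = 0.000677, adjusted p = 0.999). Chrne, the epsilon subunit of the muscle acetylcholine receptor, had 40.1 and 52.0 in C57BL/6J wild type, 78.7 and 109 in C57BL/6J Il10-null, 117 and 85.3 in C3H/HeJBir wild type, and 24.2 and 44.7 in C3H/HeJBir Il10-null, with opposite Il10 differences of 0.87 for C57BL/6J and -1.32 for C3H/HeJBir that did not overlap in either strain. Its contrast was -2.19 ± 0.44. Vcam1, the endothelial receptor for lymphocyte integrins, had 19.9 and 16.5 in C57BL/6J wild type, 58.0 and 64.1 in C57BL/6J Il10-null, 52.6 and 58.0 in C3H/HeJBir wild type, and 48.6 and 53.8 in C3H/HeJBir Il10-null. Both C57BL/6J wild-type pools lay below all others, and the contrast was -1.39 ± 0.31, -1.25 in sample 1 and -1.53 in sample 2, whereas its brighter probe set, the one read in the adhesion list, gave 0.50.

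Ly6g6c, a Ly6 family protein, had intensities of 47.2 and 46.1 in C57BL/6J wild type, 58.0 and 50.4 in C57BL/6J Il10-null, 293 and 247 in C3H/HeJBir wild type, and 138 and 155 in C3H/HeJBir Il10-null, higher in every C3H/HeJBir pool than in any of C57BL/6J, and lower in the Il10-null pools of C3H/HeJBir. Its contrast was -1.01 ± 0.31, -1.27 in sample 1 and -0.74 in sample 2. Acbd6, which binds acyl-CoA, had 44.1 and 31.2 in C57BL/6J wild type, 43.3 and 46.6 in C57BL/6J Il10-null, 69.6 and 51.1 in C3H/HeJBir wild type, and 20.9 and 26.4 in C3H/HeJBir Il10-null, with both C3H/HeJBir Il10-null pools below all others and a contrast of -1.24 ± 0.36. Gnb4, a G protein beta subunit, had 7.33 and 17.9 in C57BL/6J wild type, 48.0 and 31.9 in C57BL/6J Il10-null, 75.8 and 48.5 in C3H/HeJBir wild type, and 41.8 and 28.1 in C3H/HeJBir Il10-null, with a contrast of -1.79 ± 0.47. In C57BL/6J wild type sample 1 it lay below 11.07, the constant added before the log, which limits the size of its difference. The other genes on this side, Lgals3bp, Hspa1b, Ifi27l2a, Btg2, Retnlb and Hspa1a, have been given with their lists.

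**Figure D5:**
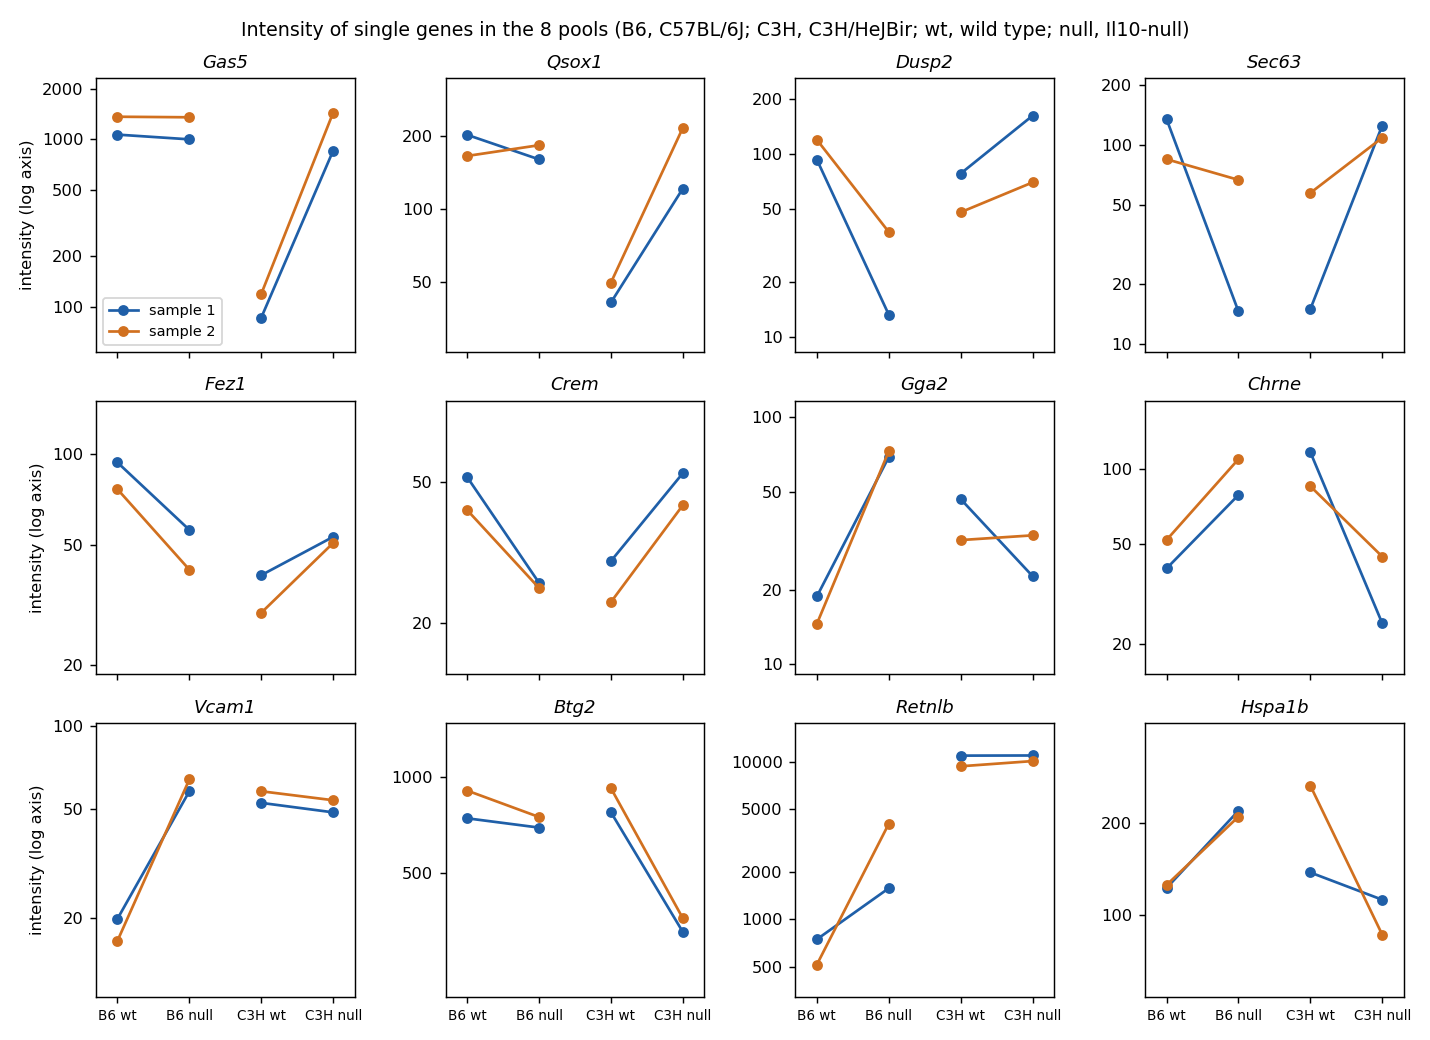
Intensity (y axis, log scale) of 12 single genes in the 8 pools, with blue for sample 1, orange for sample 2 and lines joining wild type and Il10-null of a strain and sample number. In the first 6 the lines of C3H/HeJBir rise, from 86.4 to 855 and from 119.6 to 1439.65 for Gas5, and in the last 6 the contrast is negative in both sample numbers.

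Some genes had Il10 differences of opposite sign in the strains, each of at least 0.58 on average and opposite in both sample numbers. Among the probe sets with 1 gene symbol, out of 7538 tested in all, 8 with a positive and 10 with a negative contrast did so. How many the spread between pools alone would give was not tested. Beside Sec63, Dusp2 and Slc29a1 the positive ones led with the potassium channel gene Kcnh2 (Il10 differences of -0.85 for C57BL/6J and 0.81 for C3H/HeJBir), the ATPase gene Ola1 (-0.72 for C57BL/6J and 0.87 for C3H/HeJBir) and Sema4b, a semaphorin (-0.61 for C57BL/6J and 0.73 for C3H/HeJBir). Kcnh2 had intensities of 72.2 and 47.4 in C57BL/6J wild type, 16.2 and 43.7 in C57BL/6J Il10-null, 13.3 and 54.3 in C3H/HeJBir wild type, and 57.8 and 60.3 in C3H/HeJBir Il10-null, and its contrast of 3.11 in sample 1 and 0.22 in sample 2 lay mostly in sample 1. The other probe sets of Sema4b gave -0.14 and -0.19. Beside Chrne, Gnb4, Hspa1b and Lgals3bp the negative ones led with Cited1, a transcriptional coactivator (0.62 for C57BL/6J and -1.16 for C3H/HeJBir), and the folate carrier Slc19a1 (0.96 for C57BL/6J and -0.63 for C3H/HeJBir). Most of these genes were dim, and Cited1 had a lowest intensity of 9.49, below the added constant. The other probe set of Slc19a1 gave -0.49.

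Several of the leading genes lie on chromosome 1, which also carries Il10. Of 356 tested probe sets on chromosome 1, 9 (2.53%) had an unadjusted p under 0.05, against 114 of 7538 (1.51%) in all, with chromosome 17 at 2.89% and chromosome 12 at 2.74%. In the gene order of RefSeq, 3 of the 9 lay before Il10, among 184 tested there (1.63%), and 6 after it, among 172 (3.49%). Of the 172, 5 had a contrast of 1 or more in 1 direction in both sample numbers, and of the 184, 0, against 44 of all 7538. Of those 5, 2 were probe sets of Gas5. Those after Il10 were, in order, Btg2, Arpc5, Acbd6, Qsox1, Tor3a and Gas5. Arpc5 and Tor3a fall outside the naming rule and were chosen after their values were seen, as was the split at Il10, so no test is given. Tor3a, an interferon-inducible ATPase, had intensities of 89.6 and 80.3 in C57BL/6J wild type, 59.8 and 83.9 in C57BL/6J Il10-null, 237 and 189.6 in C3H/HeJBir wild type, and 89.7 and 75.3 in C3H/HeJBir Il10-null. Arpc5, a subunit of the Arp2/3 actin complex, had 151 and 120 in C57BL/6J wild type, 156 and 200.3 in C57BL/6J Il10-null, 153 and 149 in C3H/HeJBir wild type, and 104 and 89.1 in C3H/HeJBir Il10-null. In all 6 both C3H/HeJBir Il10-null pools lay on the same side of both wild-type pools of that strain. The 6 were picked by the p of a contrast that holds this difference, so that choice favoured such a separation. The share of all tested probe sets with it was not counted. For Gas5, Qsox1 and Tor3a the C3H/HeJBir Il10-null pools overlapped or lay near the C57BL/6J range and the C3H/HeJBir wild-type pools lay outside it, while for Btg2, Arpc5 and Acbd6 they lay below every other pool. The length of chromosome that came with the targeted allele in each strain was not analysed here, and its part in these contrasts was not tested.

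Il10 itself was dim and lay under the intensity filter, with intensities of 9.70 and 7.34 in C57BL/6J wild type, 51.7 and 22.03 in C57BL/6J Il10-null, 5.43 and 10.9 in C3H/HeJBir wild type, and 28.3 and 35.4 in C3H/HeJBir Il10-null. Every Il10-null pool was above every wild-type pool, and without the filter the contrast was -0.05 ± 0.49. The position of these probes and of the targeted change within the gene was not analysed here, so the values check no label. Of the sex-linked genes, Xist had a contrast of 0.33 ± 2.97. Eif2s3y, Kdm5d and Uty, on the Y chromosome, had contrasts of -0.89 ± 1.01, -0.49 ± 0.57 and 0.10 ± 0.32. Eif2s3y intensity was 39.6 and 256 in C57BL/6J wild type, 113 and 263 in C57BL/6J Il10-null, 318 and 411 in C3H/HeJBir wild type, and 242 and 391 in C3H/HeJBir Il10-null, lowest in C57BL/6J wild type sample 1.  Leaving out all probe sets on chromosomes X and Y, 113 stood at an unadjusted p under 0.05 and the lowest adjusted p was 0.49.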

How the data were processed

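Intensity values on a linear scale, 1 per probe set and array, were deposited by the authors. How probes were summarised and scaled is not given in the sources. The highest array mean, trimmed by 2%, was 1.01 times the lowest, and no scaling was added. Signal over background and detection calls were not used. With 1 array per pool and 2 pools per group, the number of arrays limits the precision, and p-values measure the spread between pools.

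Before the log2, 11.07 (the 20th percentile of the table) was added to each value, which understates differences of dim genes. The filter, a mean of at least 36.0, was the table's 40th percentile and left 4884 probe sets untested. With limma 3.58.1 (R 4.3.3), 4 group means were fitted with no block, and the contrast was tested two-sided with Benjamini-Hochberg adjustment over all 7538 probe sets. The script was tested on simulated data. Pools of the same number deviated together (correlations of 0.196 to 0.328 over 6 pairs of groups), so the fit with sample number as a block is printed beside the main count.

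Symbols came from the platform annotation: 10833 probe sets had 1, 396 several and 1193 none, and 10817 were matched to RefSeq. In a list, the brightest probe set stood for its gene. Named were, per direction, up to 12 genes with the smallest unadjusted p and 1 sign in both sample numbers, up to 6 with opposite Il10 differences, and up to 4 members per list with the largest contrast. Ctss, Ifi204 and Mvk, named as exceptions in their lists, were chosen after their values were seen. The contrast and the gene lists were chosen with earlier results of these data known. Alternatives were other added constants, filters, scalings, blocks and moderation, averaged probe sets, no X or Y genes, and each pool left out.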

Additional observations from a re-analysis of the deposited data

Results flagged for a closer look

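Of 36 named probe sets (single genes, sex-linked genes and those of the published study), 21 had an Il10 difference of one sign in both pools of C57BL/6J and of the opposite sign in both pools of C3H/HeJBir, comparing pools of the same sample number. The rule asks for sign alone, and a difference could be near 0. It was -0.05 ± 0.33 in C57BL/6J for Gas5 and -0.09 ± 0.22 in C3H/HeJBir for Vcam1. The contrast, in log2, was positive for Gas5 (3.36), Sec63 (3.004), Dusp2 (2.47), Slc29a1 (2.14), Cox6b1 (1.69), Kcnh2 (1.66), Ola1 (1.595), Sema4b (1.34), Crem (1.31), Alppl2 (1.27), Fez1 (1.16) and Ift81 (0.93). It was negative for Chrne (-2.19), Gnb4 (-1.79), Cited1 (-1.78), Hspa1b (-1.63), Lgals3bp (-1.59), Slc19a1 (-1.59), Vcam1 (-1.39), Hspa1a (-1.26) and Ly6g6c (-1.01). The difference between the strains is the contrast that limma tested, and it passed for none of the 21 after Benjamini-Hochberg adjustment. Genes were named in part for 1 sign in both sample numbers or for such opposite differences, so this count is a description. The share of all tested probe sets with such signs was not counted. Other probe sets of Fez1, Slc29a1, Sema4b and Vcam1 gave other values, as printed above. With 2 pools in each group, no search for a pool far from the rest of its group was made.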

How the results depend on the processing

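No alternative gave a probe set with an adjusted p under 0.05, and the lowest adjusted p was 0.0558, with limma's trended and robust moderation. The number at an unadjusted p under 0.05, 114, was 320 without the filter, 63 with the filter at the 60th percentile, 211 with the sample number as a replicate block and 195 with the hybridisation day as a block. It was 103 to 401 when a pool was left out, with 401 without sample 2 of C3H/HeJBir Il10-null and 181 without sample 2 of C3H/HeJBir wild type. The share of higher ones, 47.4%, was 43.1% to 51.6% under the other settings and 26.2% to 70.2% when a pool was left out. The 44 probe sets at a log2 of 1 or more in 1 direction in both sample numbers were 84 with the added constant at the 5th percentile and 7 at the 50th, 164 without the filter and 12 with the filter at the 60th percentile. The 123 in opposite directions were 32 with the constant at the 50th percentile, 243 without the filter and 62 with the filter at the 60th percentile. The correlation between the sample numbers was -0.061 without the filter. The median contrast of type I interferon-induced genes kept its sign in all alternatives (-0.85 to -0.16 when a pool was left out), as did that of cholesterol synthesis genes (0.16 to 0.58). Of 36 named probe sets (single genes, sex-linked genes and those of the published study), 29 kept their direction throughout. Of the others, the contrast changed sign when a pool was left out for Cd14 (-0.20 to 0.51), Gbp2b (-0.06 to 1.39), Pla2g2a (-0.71 to 1.37), Eif2s3y (-2.09 to 0.31), Kdm5d (-1.14 to 0.17), Uty (-0.029 to 0.23) and Xist (-2.20 to 2.86). Fewer probe sets or samples enter under the filters and without a pool, and the cause of the other shifts was not tested. Dim probe sets limit what can be measured, since 4884 of 12422 lay under the filter.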
